A study of Mus musculus with 35 samples.

Results

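The chromatin of 8 proneural and neurogenic factor genes was followed in mouse retina: Atoh7, Neurog2, Olig2, Neurod4, Insm1, Hes6, Sox11 and Sox4. They were taken by name, out of 15782 coding genes whose start could be placed on the mm9 assembly that the peak lists use. Peak lists of 27 chromatin immunoprecipitation sequencing (ChIP-Seq) libraries were read. Wild-type retinae were profiled on postnatal day (P) 0, 14 and 21, with 2 libraries for each of the histone marks H3K4me3, H3K27Ac and H3K27me3 at each age. At P12, wild-type retinae gave 1 library for H3K27Ac, 1 for H3K4me3 and 2 for H3K27me3. Retinae labelled BRG1 -/- (below, Brg1-deficient) were profiled at P12 only, with 2 libraries for H3K27Ac and 1 each for H3K4me3 and H3K27me3. In that line, Chx10-Cre;Brg1 Lox/Lox, Cre acts in retinal progenitor cells in a mosaic pattern, so the tissue still holds cells with Brg1. Brg1 itself, an ATPase of the BAF chromatin remodelling complex, was profiled by an anti-FLAG antibody in 1 library of newborn (P0) pups of the BRG-FLAG genotype, a knock-in of the FLAG tag. The P12 libraries of H3K27me3 were made with another antibody (AB3) than the other H3K27me3 libraries (AB1), so that age and antibody cannot be told apart there.

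Proneural genes encode basic helix-loop-helix (bHLH) transcription factors that bind E-box motifs and push progenitor cells towards a neuronal fate. In the retina, Notch signalling with its Hes effectors holds them back, as do Id proteins. Each factor is used in a window of development. Atoh7 is needed for ganglion cells, which are born first, and Neurod4 takes part in making later neurons. Cells that have finished differentiating no longer use most of these genes. H3K4me3 marks the start of genes that are active or poised, H3K27Ac marks active promoters and enhancers, and H3K27me3 is the mark of Polycomb repression. A gene start that carries H3K4me3 and H3K27me3 in bulk tissue may hold both marks on 1 chromosome or in different cells.

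The promoters are shown first, with their CpG dinucleotides, which Polycomb and H3K4me3 domains are known to favour. Whether CpG content goes with the marks of these genes was not tested. RefSeq held a 300-base window (250 bases before the start and 50 after it, GRCm38.p6) for 7 of the 8 genes. Against a median of 7 CpG over 32851 promoters of the table, Olig2 had 25, Sox11 21, Hes6 14, Sox4 12, Atoh7 11, Neurog2 10 and Neurod4 4. In the same order they stood at percentiles 81.6, 75.2, 63.7, 60.4, 58.6, 56.5 and 31.4 of those promoters. The windows of Olig2 (chr16:91225300-91225599, plus strand), Sox11 (chr12:27342669-27342968, minus strand), Hes6 (chr1:91413989-91414288, minus strand) and Neurod4 (chr10:130280205-130280504, minus strand) span that range. Capitals mark CG.
Olig2: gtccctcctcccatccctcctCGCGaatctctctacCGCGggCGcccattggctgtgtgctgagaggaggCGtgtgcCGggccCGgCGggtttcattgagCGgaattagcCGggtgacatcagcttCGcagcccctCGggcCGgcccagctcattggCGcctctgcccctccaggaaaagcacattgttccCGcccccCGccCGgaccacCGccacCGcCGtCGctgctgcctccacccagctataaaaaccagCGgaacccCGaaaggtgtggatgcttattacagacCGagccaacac
Sox11: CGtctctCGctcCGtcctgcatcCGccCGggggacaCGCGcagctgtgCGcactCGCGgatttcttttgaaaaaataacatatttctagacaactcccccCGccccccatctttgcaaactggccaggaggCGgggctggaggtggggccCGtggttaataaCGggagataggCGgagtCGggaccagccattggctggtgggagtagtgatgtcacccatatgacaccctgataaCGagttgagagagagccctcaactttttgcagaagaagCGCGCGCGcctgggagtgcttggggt
Hes6: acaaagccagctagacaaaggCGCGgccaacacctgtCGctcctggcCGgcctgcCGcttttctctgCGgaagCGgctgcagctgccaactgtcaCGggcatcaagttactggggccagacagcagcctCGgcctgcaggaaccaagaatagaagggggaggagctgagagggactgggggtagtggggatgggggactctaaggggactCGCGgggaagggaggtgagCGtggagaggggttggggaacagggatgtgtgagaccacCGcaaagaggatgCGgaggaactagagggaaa
Neurod4: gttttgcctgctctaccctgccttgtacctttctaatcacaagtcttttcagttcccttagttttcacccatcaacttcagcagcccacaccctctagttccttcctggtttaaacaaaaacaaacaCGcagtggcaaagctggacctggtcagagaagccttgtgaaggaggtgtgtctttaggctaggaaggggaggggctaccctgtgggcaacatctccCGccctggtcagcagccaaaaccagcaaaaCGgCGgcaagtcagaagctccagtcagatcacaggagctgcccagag

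An E-box was searched as CANNTG, which reads the same on both strands. Matches were found at 4 of the 7 promoters: 3 in Atoh7, 3 in Hes6, 2 in Sox11 and 1 in Sox4. Neurog2, Olig2 and Neurod4 had none in these windows. At least 1 match was held by 72.3% of all promoters of the table, so this is a count of letters and not of sites. The Atoh7 window (chr10:63099535-63099834, plus strand) is shown with its E-boxes in capitals.
Atoh7: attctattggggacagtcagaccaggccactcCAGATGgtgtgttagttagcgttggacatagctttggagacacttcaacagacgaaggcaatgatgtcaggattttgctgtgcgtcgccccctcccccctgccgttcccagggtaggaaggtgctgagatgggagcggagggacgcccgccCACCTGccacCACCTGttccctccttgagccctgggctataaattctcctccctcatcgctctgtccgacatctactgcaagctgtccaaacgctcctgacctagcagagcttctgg

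The libraries were uneven for H3K27Ac. The replicate 1 lists were short (17588 peaks at P0, 17433 at P14, 18718 at P21) beside those of replicate 2 (29304, 50005 and 45833). H3K4me3 lists held 18534 to 24124 peaks and the Brg1 list 50861. In the shorter H3K27Ac lists 32.2% to 50% of gene starts had a peak, against 55.0% to 59.0% in the longer ones. Read depth is unknown. The tissue label was checked with markers: the rod genes Nrl, Sag and Crx carried promoter H3K27Ac in both P21 libraries (1 of the 3 at P0), while the markers measured for pigment epithelium (2), blood and immune cells (2) and endothelium (1) carried none in both libraries at either age. At P21 both libraries marked 1 of 2 Muller glia and 1 of 4 amacrine markers and none of the 3 cone, 3 bipolar and 3 ganglion cell markers, and at P0 none of these 3 groups either. One skeletal muscle marker of 2 did at P21, and 1 lens marker of 4 did at P0.

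Brg1 was present at the start of all 8 genes in P0 retina, that is, within 2 kb of it (background 54.5% of the 15782 starts). Its height was the fold enrichment over background of the highest peak touching the window, whose summit may lie outside it. This height was 17.8 at Hes6, 13.9 at Insm1, 12.1 at Sox11 and 11.5 at Sox4. It was 9.01 at Olig2, 8.60 at Neurog2, 5.62 at Atoh7 and 4.46 at Neurod4. The median over the 8596 starts with a Brg1 peak was 5.86. Hes6, which encodes a Hes family protein that promotes neuronal differentiation, stood at percentile 99.8 of those starts, and Insm1, a zinc-finger factor of newborn neurons, at 98.6. Atoh7 (percentile 45.5) and Neurod4 (21.5) were at and below the middle. With 1 library there was no replicate of these heights.

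At 6 of the 8 genes Brg1 covered more than 2 kb, as it did at 21.5% of the starts with a Brg1 peak. The peaks that touched the window measured 7.77 kb together at Olig2, 7.72 kb at Insm1, 5.13 kb at Hes6, 4.28 kb at Sox4, 3.73 kb at Neurog2 and 3.30 kb at Sox11, against a median of 1.20 kb. Atoh7 (1.38 kb) and Neurod4 (1.07 kb) were narrow. In the gene and 20 kb on each side there were 12 Brg1 peaks at Neurog2, 9 at Hes6, 8 each at Olig2 and Insm1, 7 at Atoh7, 5 at Sox4 and 4 each at Neurod4 and Sox11. The median coding gene had 2.

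**Figure D1:**
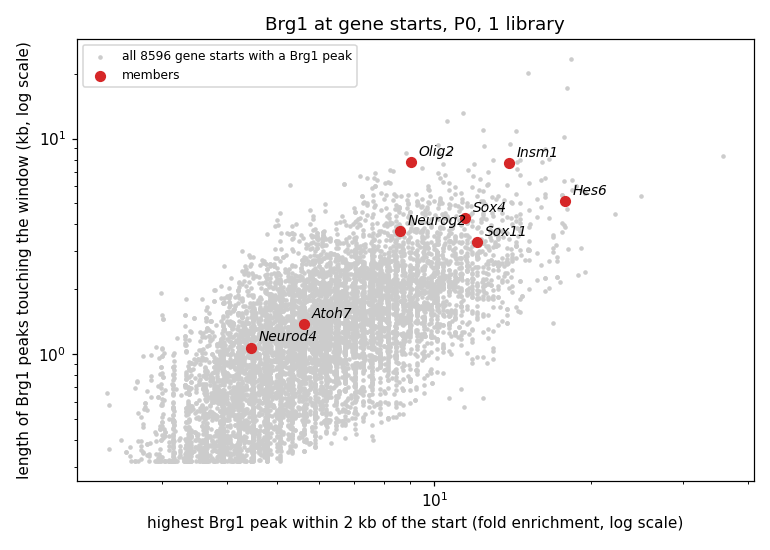
Height of the highest Brg1 peak within 2 kb of the gene start (fold enrichment, log scale) against the total length of the Brg1 peaks touching that window (kb, log scale) in the single P0 library. Grey points are the 8596 gene starts with a peak and red points the 8 genes, of which Hes6, Insm1 and Olig2 sit at the upper right and Neurod4 and Atoh7 within the bulk.

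At birth the 8 starts fell into different chromatin states. H3K4me3 was present in both P0 libraries at all 8. An H3K27me3 domain touched the window in both P0 libraries at 4 of them, Atoh7, Neurog2, Olig2 and Insm1 (background 20.6% of starts for H3K27me3, 17% for H3K4me3 and H3K27me3 together). H3K27Ac was present in both P0 libraries at 6 of 8 (background 49.8%). Hes6, Sox11 and Sox4 had both active marks and no H3K27me3 domain (3 of 8, background 36.4%), while Atoh7, Neurog2 and Insm1 had all 3 marks. Olig2 had H3K27Ac only in replicate 2, as did Neurod4, the 1 gene of the 8 with neither H3K27me3 nor H3K27Ac in both libraries.

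H3K27me3 then took different courses. Sox11, a SoxC factor of immature neurons, had no domain in either P0 library. Every P14 and P21 library had one there, and so did those of P12, made with another antibody than at P0. The domains that touched its window measured 8.40 and 4.20 kb at P12, 6.60 and 6.80 kb at P14, 6.60 and 10.2 kb at P21, and 6.40 kb in the Brg1-deficient library. They covered 96.3% to 100% of the 4 kb window. The P0 libraries did not overlap with those of P14 and P21, which share their antibody. A domain in both P14 and both P21 libraries was seen at 2.5% of the 11159 starts that had none in either P0 library, and at 3.25% of the 5756 of them that carried H3K27Ac at P0. Of the 4 genes without a domain at P0, Sox11 was the 1 with it in both libraries of both ages.

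At Neurog2, a proneural bHLH gene of progenitor cells, the mark was already present and spread. The domains at its start measured 10.2 and 9.40 kb at P0, then 29.0 and 22.0 kb at P12, 25.6 and 28.4 kb at P14 and 25.8 and 26.6 kb at P21. Both P14 and both P21 libraries were above both P0 libraries. So were those of P12, the Brg1-deficient one at 21.6 kb among them, though with the other antibody. At P0 the domains left 11.2% to 21.2% of the window uncovered, and later none of it. Over the whole genome, domains covered 96.7 and 114 Mb at P0 and 126 to 213 Mb later. At all starts with a domain the median length was 7.6 and 6.0 kb at P0 and 5.4 to 8.0 kb later. The share of all starts with a rise like that at Neurog2 was not computed.

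Olig2, a bHLH gene of a progenitor subset and of oligodendrocytes, lay in a wide domain throughout. It measured 38.6 and 38.8 kb at P0, 40 and 38.8 kb at P12, 32.4 and 45.6 kb at P14 and 39.0 and 30.8 kb at P21. The wild-type ages overlapped. The Brg1-deficient library was shorter than all of them, at 24.2 kb, where the domain was broken by gaps, as it was in some wild-type libraries. With 1 such library there was no replicate of that difference.

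At Insm1 and Atoh7 the domains became shorter. Insm1 had 10.4 and 10.8 kb at P0, 6.80 and 3.40 kb at P12, 3.60 and 3.40 kb at P14. It had none and 3.40 kb at P21 and 3.40 kb in the Brg1-deficient library. Every P14 and P21 library was below both P0 libraries, as were those of P12 with the other antibody. Atoh7 had 6.0 and 13.4 kb at P0, 2.80 and 0.80 kb at P12, none and 2.40 kb at P14, 3.80 kb and none at P21 and none in the Brg1-deficient library. Its P14 and P21 libraries disagreed on whether a domain was there, and all were below P0. For neither gene was the share of all starts with such a fall computed. In reads, which were not scaled for depth, the Insm1 domains held 192 and 333 at P0 and 83 and 197 at P14, so these ages overlapped. They were weak at P0 beside those of Neurog2, which held 629 and 1010 reads over a like length.

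Hes6 and Neurod4 had no domain at the start in any of the 9 libraries. Sox4 had one in both P12 wild-type libraries only, 1.60 and 0.80 kb long, which covered 12% and 17.0% of the window at its edge. Counted by gene, a domain in both libraries was found at 6 of 8 genes at P12 (background 22.4%), 4 at P14 (19.2%) and 3 at P21 (20.5%), and the Brg1-deficient library had one at 4 (25.3%).

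**Figure D2:**
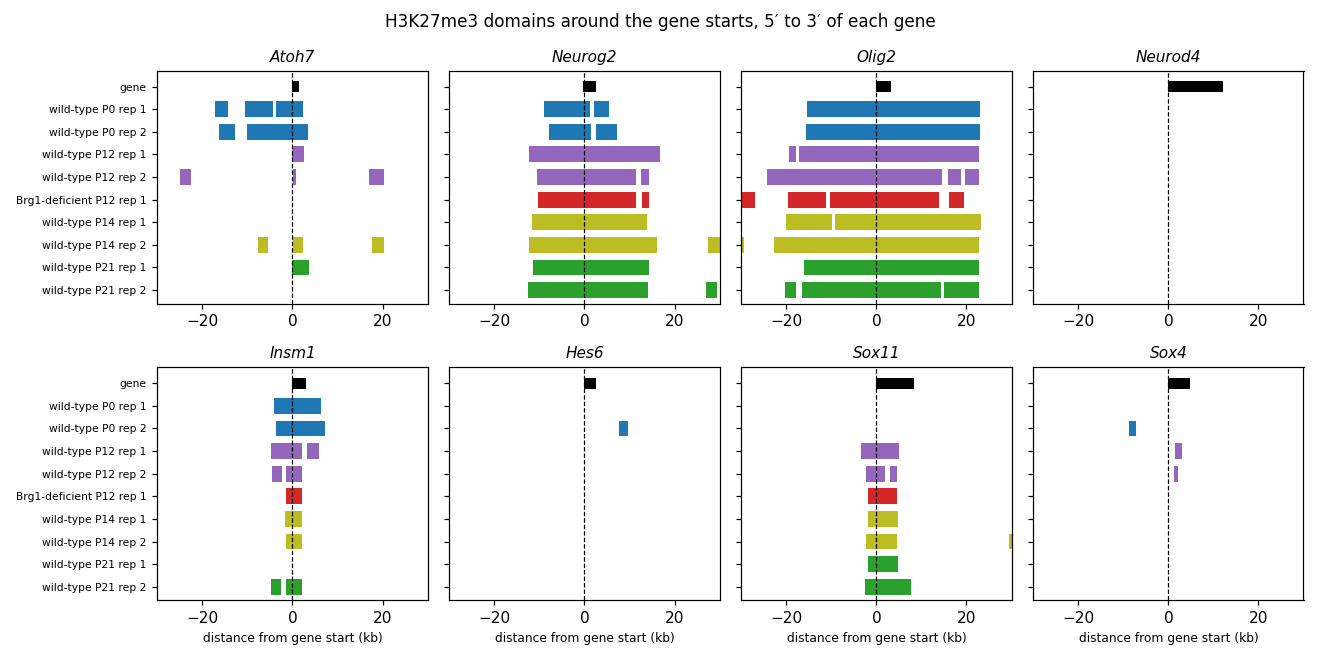
H3K27me3 domains (bars, 1 row per library) within 30 kb of each gene start, drawn by distance from the start in kb with the gene running to the right (black bar). Sox11 has no bar in the P0 rows and one in every later row, the Neurog2 bars lengthen after P0, those of Insm1 and Atoh7 shorten, and Hes6 and Neurod4 have none at the start. The P12 rows were made with another antibody than the rest.

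H3K4me3 at all 8 starts was shorter at P14 and at P21 than at P0. The length was the sum of the H3K4me3 peaks that touched the 2 kb window, a measure chosen after the data were seen. Both later libraries were below both P0 libraries at 8 of 8 genes in each comparison. That was so for 54.8% of the 9894 starts with a peak in both P0 libraries at P14, and for 27.9% at P21. On a log2 scale the median change of the 8 was -0.58 at P14 and -0.65 at P21, against -0.14 and -0.02 over all 10020 starts tested.

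Sox11 shortened most evenly. Its H3K4me3 measured 6.26 and 7.18 kb at P0, 2.82 kb at P12, 2.54 and 2.68 kb at P14 and 2.63 and 2.45 kb at P21. The P0 libraries stood well apart from the 5 later ones. The log2 change was -1.30 ± 0.13 (SE, n = 2 and 2 libraries) at P14, limma adjusted p = 0.0025, and -1.33 ± 0.13 at P21, adjusted p = 0.0019. At P14 Sox11 was the 1 gene of the 8 past the threshold (background 5.07% of starts lower), and without P0 replicate 2 its adjusted p was 0.066.

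Olig2 lost nearly all of its H3K4me3. It measured 5.87 and 6.50 kb at P0, 1.62 kb at P12, 0.733 and 0.976 kb at P14, and 0.639 kb and no peak at P21. The change at P21 was -3.96 ± 0.60 on the log2 scale, limma adjusted p = 0.012. It was -5.0 without P21 replicate 1 and -2.93 without replicate 2, which has no peak there. At P14 it was -2.61 ± 0.60, limma adjusted p = 0.058.

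Neurog2 measured 3.60 and 4.30 kb at P0, 2.54 kb at P12, 2.48 and 2.58 kb at P14 and 2.48 and 2.30 kb at P21. Its log2 change at P21, -0.67 ± 0.14, passed with limma adjusted p = 0.036 and was the third of 3 genes lower at P21 (background 5.39%). The call at Neurog2 was lost without either P0 library (limma adjusted p = 0.14 and 0.35), with a pseudocount of 50 bp in place of 200 bp (0.051) and with only P0 and P21 in the fit (0.072). That at Olig2 was lost without either P0 library (limma adjusted p = 0.052 and 0.063) and with 50 bp (0.075).

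The other 5 did not pass in either comparison. Sox4, the SoxC relative of Sox11, measured 6.14 and 5.78 kb at P0 and 3.74 to 4.28 kb at P14 and P21. Hes6 measured 3.67 kb in both P0 libraries and 1.86 to 2.85 kb later. Neurod4 went from 1.89 and 3.34 kb to between 0.710 and 1.44 kb, and Atoh7 from 1.75 and 1.81 kb to between 0.864 and 1.36 kb. Insm1 differed least, from 5.17 and 5.25 kb to between 3.90 and 5.05 kb, with log2 changes of -0.16 ± 0.14 and -0.31 ± 0.14.

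**Figure D3:**
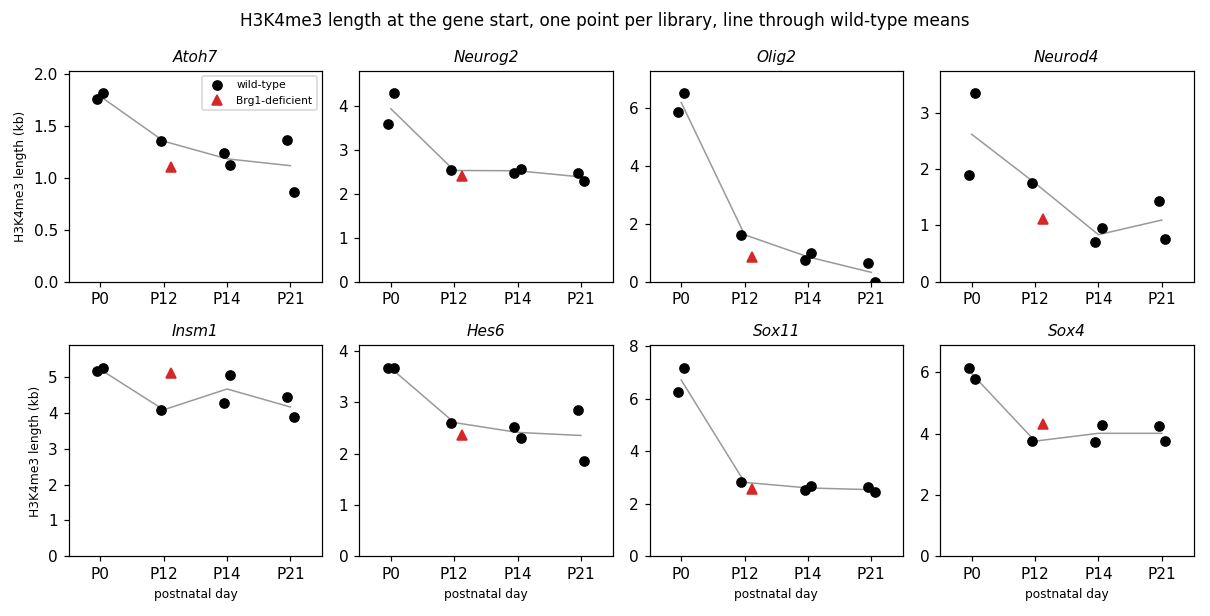
Total length of the H3K4me3 peaks touching the 2 kb window at each gene start (kb) by postnatal day, 1 point per library (black circles wild-type, red triangles Brg1-deficient) with a line through the wild-type means. The P0 points lie above every P14 and P21 point in all 8 panels, furthest at Sox11 and Olig2.

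Height gave another picture from length. H3K4me3 heights at Olig2 were 19.7 and 15.1 fold at P0, 11.2 at P12, 6.53 and 5.39 at P14, and 6.01 and no peak at P21. After scaling between libraries this was a log2 change of -1.99 ± 0.35 at P21, limma adjusted p = 0.0042, and of -1.01 ± 0.35 at P14, adjusted p = 0.16. Olig2 was the only gene of the 8 past the threshold, and only at P21 (background 8.11% of 10020 starts lower). Without scaling its adjusted p was 0.09. None of the 8 passed at P14 (background 2.91%).

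Neurog2 had deposited heights of 30.4 and 45.8 fold at P0, 47.2 at P12, 17.8 and 17.4 at P14 and 28.3 and 10.7 at P21. Its scaled log2 changes of -0.81 ± 0.30 and -0.97 ± 0.30 had limma adjusted p = 0.20 and 0.064. Sox11 had 47.2 and 34.4 at P0, 37.0 and 20.2 at P14 and 22.4 and 14.1 at P21, with -0.35 ± 0.36 and -1.04 ± 0.36 (limma adjusted p = 0.73 and 0.10). At Neurod4 the heights were the lowest of the 8 at P0, 12.6 and 11.2, and 4.32 to 11.2 later.

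Atoh7, Insm1, Hes6 and Sox4 kept tall peaks. Atoh7 had 40.4 and 36.4 at P0 and still 42.8 and 34.0 at P14 and 55.8 and 11.6 at P21. Insm1 had 40.4 and 35.3, then 36.3 and 30, then 62.8 and 22.6. Hes6 had 34.9 and 31.7, then 25.9 and 47.0, then 87.3 and 29.0. Sox4 had 39.0 and 47.4, then 18.6 and 36.9, then 52.8 and 25.5. The ages overlapped at Atoh7, Insm1 and Hes6. At Sox4 both P14 libraries were below both P0 libraries, and the P21 libraries overlapped both ages. The scaled log2 change of Sox4 at P14 was -0.49 ± 0.33 (limma adjusted p = 0.57), and the share of all starts with such a fall was not computed. P21 replicate 1 was the higher of the P21 libraries at all 8 genes, and its median over all starts was 61.7 against 23.8 in replicate 2. Between P14 and P21 none of the 8 passed in height or length.

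**Figure D4:**
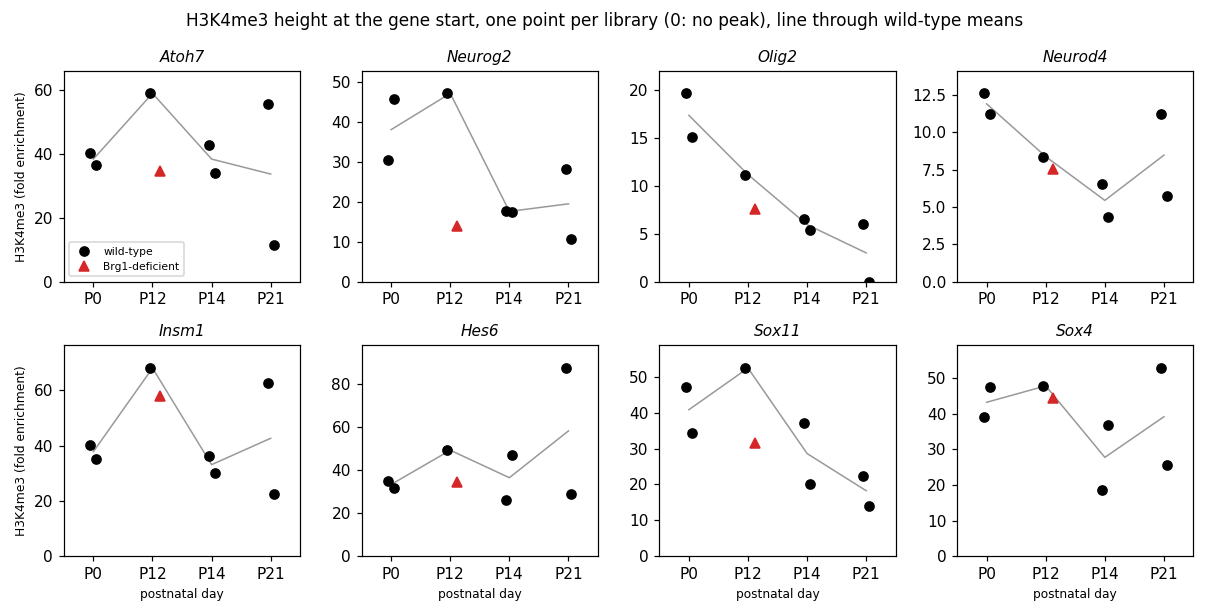
Deposited H3K4me3 height (fold enrichment of the highest peak within 2 kb of the start) by postnatal day, 1 point per library, 0 where a library had no peak, wild-type in black and Brg1-deficient in red. Olig2 falls from 19.7 and 15.1 at P0 to 6.53 or less at P14 and P21, whereas the points of Atoh7, Insm1 and Hes6 overlap between ages and those of Sox4 do so at P21 but not between P0 and P14.

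H3K27Ac at the starts was lower after P0 at several of the 8 genes, but none passed the test. Sox11 had peaks of 14.5 and 10.6 fold at P0, none at P12, none and 3.42 at P14, and none in either P21 library. The scaled log2 changes were -1.93 ± 0.41 (limma adjusted p = 0.34) at P14 and -2.31 ± 0.41 (adjusted p = 0.21) at P21. Neurog2 had 5.07 and 7.82 at P0, none at P12, none and 3.05 at P14 and none at P21, with changes of -1.25 ± 0.39 and -1.59 ± 0.39 (limma adjusted p = 0.55 and 0.26). These were 2 of the 6 genes of the set with a peak in both P0 libraries. A peak in both P0 libraries and in neither P21 library was seen at 3.86% of 7856 such starts.

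Sox4 had 14.8 and 18.1 at P0, 7.93 at P12, 6.65 and 10 at P14, and none and 7.34 at P21. Hes6 had 20.5 and 16.9, then 11, then 5.04 and 20.3, then none and 8.22. At both genes the missing peak was in P21 replicate 1, the shorter list. Atoh7 also lacked a peak in replicate 1 of P14 and P21 only, with 12.1 and 5.13 in replicate 2 against 5.21 and 9.36 at P0.

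Insm1 stayed acetylated, with 16.1 and 11.9 at P0, 22.9 at P12, 17.4 and 18.7 at P14 and 14.3 and 9.26 at P21. It was the only gene of the 8 with a peak in every H3K27Ac library, while an H3K27me3 domain touched the same window in 8 of the 9 H3K27me3 libraries. Olig2 had 1 peak, 4.26 fold in P0 replicate 2, and none later. Neurod4 had none or 3.64 at P0 and 4.29, 4.77 and 3.84 in the P12 library and in replicate 2 of P14 and P21. These were not all the same peak. The 3.64 and the 4.77 lay 1.45 to 1.96 kb upstream. The 3.84 lay across the start, where P14 replicate 2 had 3.67 and neither P0 library had a peak.

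After scaling, both P14 libraries were below both P0 libraries at 4 of the 6 genes with a peak in both P0 libraries (background 34.3%), and both P21 libraries at 5 of 6 (32.9%). The test called 0% of the 9164 starts at either age, with 666 and 921 starts at an unadjusted p below 0.05. It tested 7 of the 8 genes, as Olig2 had a peak in 1 library only. On simulated heights of the P14 comparison it recovered 0 of 200 starts changed by 2 on the log2 scale. Where a peak was required in every library it recovered 164 of 200. With lists of equal length it recovered 0 of 200, although that setting did call starts on the real lists. The simulation thus does not settle what the test could call, and the lack of calls cannot be read as a lack of change. With lists of equal length, 2 of the 8 genes passed at each age, Sox11 and Neurog2, with limma adjusted p = 0.044 for both at P14 and 0.033 and 0.036 at P21, beside 326 and 447 of all starts lower. In bulk tissue, fewer cells with the mark and less mark per cell cannot be told apart.

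**Figure D5:**
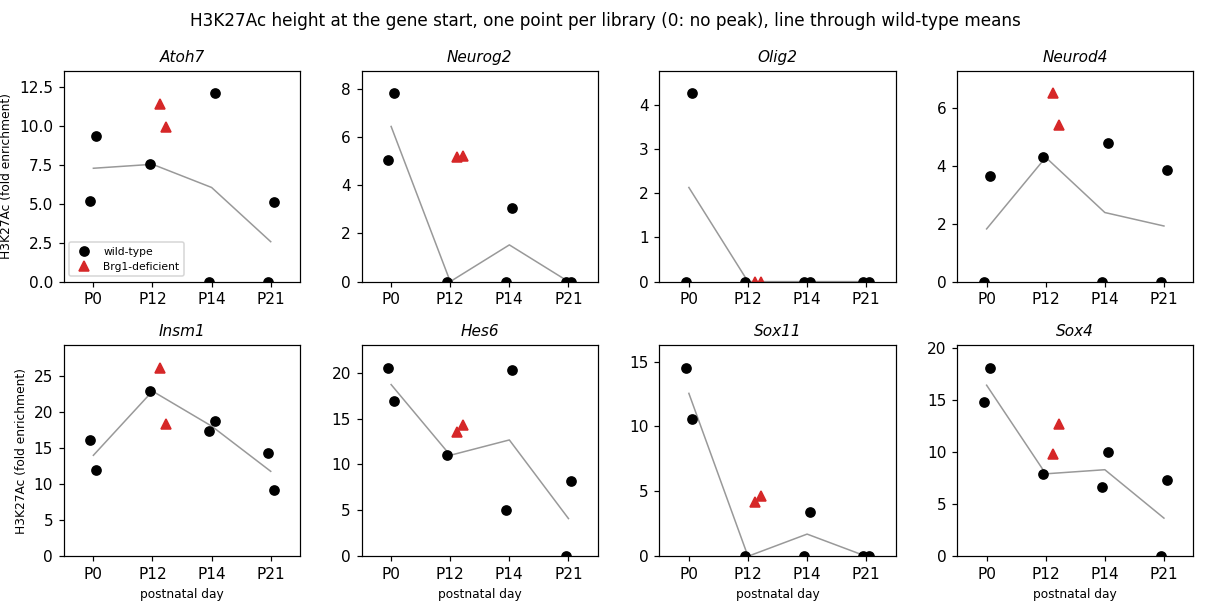
Deposited H3K27Ac height (fold enrichment of the highest peak within 2 kb of the start) by postnatal day, 1 point per library, 0 where a library had no peak, wild-type in black and Brg1-deficient in red. Sox11 and Neurog2 have peaks at P0 and none at P12 and P21 in wild-type libraries, whereas both Brg1-deficient libraries have one at each gene.

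In the 8 genes and 20 kb around them, starts included, H3K27Ac peaks of the 6 wild-type libraries merged into 40 regions. Brg1 lay at 26 of these at P0. Of the 21 regions with a peak in at least 2 libraries, 15 (71.4%) had a Brg1 peak, against 56.0% of 33340 such regions genome-wide. Regions at the starts, where Brg1 was already counted above, are among the 21, so this is not a share of distal regions. None of the 21 passed the test between ages, nor did any region (0% at P14 and at P21). These counts depended on the setting. With lists of equal length the peaks were merged anew, which gave 19399 regions tested. Of those at the 8 genes, 5 passed at P14 (4 lower) and 6 at P21 (all lower). Genome-wide, 4348 (2244 lower) and 5556 (2574 lower) passed. Over all settings run, 0 to 6 regions of the 8 genes and 0 to 7233 genome-wide passed at P21, out of numbers tested that varied.

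Sox11 had 4 such regions and all 4 went the same way. One inside the gene, 2.87 to 4.0 kb from the start (chr12:28023543-28024678 on mm9), was at 9.30 and 13.2 fold at P0, 4.08 and 6.17 at P14 and without a peak at P21. A region 14.4 to 15.0 kb upstream held 3.64 and 3.99 at P0, none and 3.25 at P14 and none at P21. In both P21 libraries Sox11 had 0 H3K27Ac peaks in the gene and 20 kb around it, against 4 in each P0 library. The short list of P21 replicate 1 also had none at Atoh7, Neurog2, Olig2, Neurod4 and Sox4, and replicate 2 had none at Neurog2 and Olig2. The share of all genes with such a fall was not computed.

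At Sox4 a region 4.23 to 6.12 kb upstream (chr13:29049951-29051843) had a peak in both libraries of P0 and P14 and in 1 of P21. It was at 7.04 and 7.36 fold at P0, 6.25 and 13.5 at P14 and none and 6.15 at P21, and Brg1 was there at 12.1 fold, above the 11.5 at the start itself. Its scaled log2 change at P21 was -0.94 ± 0.57 (limma adjusted p = 0.44). Insm1 had a region 3.18 to 4.81 kb upstream, with 6.01 and 10 at P0, 5.80 and 11.4 at P14 and none and 4.76 at P21, which lay 2156 bp from an end of the gene Cfap61. There the change at P21 was -1.14 ± 0.53 (limma adjusted p = 0.26). At Neurod4, regions 16.6 to 17.2 kb and 20.4 to 20.8 kb downstream of its start had no peak in either P0 library and 3.68 to 4.40 fold in replicate 2 of P14 and P21, but none in the shorter replicate 1 lists. The 1 strong distal region at Hes6, 14.7 to 16.3 kb downstream, covered an end of the gene Ilkap and cannot be given to Hes6. The acetylated region at the Hes6 start itself lay 234 bp from an end of Per2.

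The Brg1-deficient retinae were compared with wild-type at P12. Sox11 had no H3K27Ac peak in the wild-type library and peaks of 4.15 and 4.61 fold in the Brg1-deficient libraries. Neurog2 had none against 5.18 and 5.23. In the gene and 20 kb around it, start included, there were 0 peaks at Sox11 in wild-type and 5 in each Brg1-deficient library. Neurog2 had 0 against 2 and 2. The counts were 3 against 7 and 8 at Neurod4, 10 against 12 and 13 at Insm1, 4 against 5 and 4 at Sox4 and 3 against 3 and 2 at Hes6. Atoh7 had 1 in each library and Olig2 had 0. The share of all genes with such a rise was not computed. The wild-type list was the longer, with 47404 peaks against 40465 and 42887, but at gene starts it was the weaker, with a peak at 54.7% of them against 56.9% and 56.7% and a median height of 9.93 fold against 11.9 and 11.8. A peak in both Brg1-deficient libraries was found at 2 of the 3 genes without one in wild-type, against 4.93% of 7154 such starts, and Olig2 was the gene with none in all 3 libraries.

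After scaling, the log2 differences (Brg1-deficient minus wild-type) were 1.21 ± 0.44 at Neurog2 (95% interval 0.17 to 2.24) and 1.07 ± 0.46 at Sox11 (-0.02 to 2.17). Both had limma adjusted p = 1 over 9439 starts, of which 0% passed and 90 had an unadjusted p below 0.05. The single wild-type library was assumed to vary like the other groups. Wild-type P14 replicate 2 also had peaks at both genes, 3.42 and 3.05 fold, so P12 and P14 wild-type libraries were not alike in this.

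The other genes with a wild-type peak kept it in both Brg1-deficient libraries: 0 of 5 lost it (background 1.17%). Both Brg1-deficient libraries were above the wild-type library after scaling at 6 of the 7 genes with a peak, all but Insm1 (background 35.3%). Apart from Sox11 and Neurog2, the differences were small against their intervals, such as 0.06 (-1.79 to 1.90) at Hes6, 0.17 (-1.54 to 1.87) at Sox4 and -0.28 (-1.77 to 1.21) at Insm1. These intervals allow changes of several fold either way.

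H3K4me3 at P12 rested on 1 library a group. The scaled heights were 15.6 in the Brg1-deficient and 34.7 in the wild-type library at Neurog2, a log2 difference of -0.99 ± 0.42 (95% interval -1.91 to -0.07, limma adjusted p = 1). At the other 7 genes the differences ran from -0.16 at Atoh7 to 0.45 at Sox4. In this mark, too, 0% of 10056 starts passed, and 351 had an unadjusted p below 0.05. Each single library was assumed to vary like the other groups. The deposited height in the Brg1-deficient library at Neurog2, 14 fold, was near the 17.8 and 17.4 of wild-type P14, and its H3K4me3 length was 2.42 kb against 2.54 kb in wild-type.

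Other genes of the same pathways were read from lists, against 8.11% of all starts lower and 1.04% higher in H3K4me3 height at P21. Of 9 other neural bHLH genes tested for H3K4me3 height, 4 were lower and 0 higher at P21 (median log2 change -0.71, against -0.09 over all starts). They included Olig3, at -1.99 ± 0.29 (limma adjusted p = 0.0013), and Atoh8, at -1.19 ± 0.30 (0.027). At P0, 10 of the 11 such genes with a placed start lay in an H3K27me3 domain in both libraries, and at P21 9 did (background 20.6% and 20.5%). Of 11 Notch pathway genes, 3 were lower and 0 higher at P21 (median -0.47). The ligand gene Dll3 was at -2.40 ± 0.33 (0.00088) and the receptor gene Notch1 at -1.69 ± 0.35 (0.011).

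Of 3 Id genes, whose products hold bHLH factors inactive, 1 was lower at P21, Id3 at -1.08 ± 0.29 (0.032). Among 4 other Sox genes 2 were lower, Sox1 at -2.36 ± 0.31 (0.00069) and Sox2, a progenitor factor, at -1.68 ± 0.35 (0.011). Of 10 early neuronal genes 3 were lower and 0 higher, among them the ganglion cell genes Isl1 at -1.95 ± 0.31 (0.0025) and Pou4f2 at -1.86 ± 0.29 (0.0021). Rod genes went the other way, with 6 of 6 higher, Pde6b at 3.72 ± 0.29 (2.9e-05) and Sag at 3.27 ± 0.35 (0.0002).

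The genes most like each of the 8 were sought over the 12 wild-type libraries of H3K4me3 and H3K27Ac at P0, P14 and P21, by the root mean square difference of the log2 heights, leaving out neighbours within 50 kb. For Neurog2 the nearest was Atoh8, another bHLH gene, at 0.13, followed by Prrt4 at 0.17 and Slc12a7 at 0.19. Nearest to Sox11 were Sash1 at 0.23, and Cxcr4 and St8sia2 at 0.28 each. Olig2 was nearest to Cd44 (0.16), Mcf2 (0.16) and Pgm5 (0.18), and Atoh7 to Cdk6 (0.18), Dctpp1 (0.18) and Ropn1l (0.20). Neurod4 was nearest to Tubg2 (0.19), Vwce (0.20) and Akap6 (0.22).

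Insm1 was nearest to Map2k7 (0.24), Rufy1 (0.24) and Pea15a (0.25). The nearest to Hes6 were Taf8 (0.24), Cep68 (0.25) and Ubtd2 (0.28), and to Sox4 Snapc3 (0.28), Unc119b (0.29) and Parp8 (0.29). None of the 8 was among the 3 nearest of another.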

How the data were processed

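ChIP-Seq peak lists of 27 libraries of mouse retina were read, 1 list per library, and the 8 input samples have no list here. The submitters' processing notes name the build mm9 and the tools BWA 0.5.9-r26, MACS2 2.0.9, SICER 1.1, Picard 1.65 and bedtools 2.17.0. The authors deposited, for each narrow peak, the fold enrichment at the summit (a ratio over background) and its −log10 q-value, and for each H3K27me3 domain a whole-number read count, taken as the reads in the domain. No scaling between libraries is stated, and read depth is unknown, so that weak peaks are missed in shallow libraries.

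Gene starts came from RefSeq GRCm38 tables. They were shifted to mm9 by the offset, among coding genes within 5 Mb, that put most starts within 1 kb of wild-type P0 H3K4me3 peaks. Of 17275 starts, 15782 had a clear offset (62.2% lay within 1 kb of such a peak), and starts are approximate to that extent. Insm1 has no promoter entry and took its start from the gene table. Heights were the highest peak within 2 kb of a start, scaled on the median over starts with a peak in every library. H3K4me3 length was added after the data were seen and was not scaled.

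For each mark, the 6 wild-type libraries of the 3 ages with replicates entered 1 fit with limma 3.58.1 in R 4.3.3 (lmFit, eBayes) on log2(height + pseudocount). The pseudocount was the 5th percentile of heights, 3.8 for H3K4me3 and 3.06 for H3K27Ac, and 200 bp for length. Fold changes on this scale understate those of low peaks. Starts needed a peak in at least 2 libraries. P-values were adjusted by Benjamini-Hochberg over all starts, with a threshold of 0.05. P12 groups were compared in a fit of all libraries of the mark. Replicates are libraries, which nothing in the labels ties to separate litters, so p-values measure the spread between libraries. On simulated data with 200 starts changed by 2 on the log2 scale at P14, the test recovered 127 of 200 for H3K4me3 height, 180 for its length and 0 for H3K27Ac height.

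The 8 genes and the lists were chosen with earlier results of these data known. Named besides the 8 were at most 2 genes per list and direction, those with the largest change past the threshold, and the 3 most alike genes. Tables and figures were made with Python 3.11.15, pandas 2.3.3 and matplotlib 3.10.9.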

Additional observations from a re-analysis of the deposited data

How the results depend on the processing

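Counts below are of the 8 genes, or of their 21 H3K27Ac regions. For H3K4me3 height, 1 gene passed at P21; without scaling 0 did, and with the replicate block 3 did (Olig2, Neurog2 and Sox11). For H3K4me3 length, 1 passed at P14, and 4 did with a peak required in every library, 3 with scaling and 7 with only the compared ages in the fit (2059 of all starts, 1733 lower), and between 0 and 1 with a library left out. At P21, 3 passed for length, and 1 did with a pseudocount of 50 bp and 7 with scaling, and between 1 and 7 with a library left out (7 without P21 replicate 1, beside 2273 of all starts, 1980 lower; 1 without either P0 replicate). With the replicate block the 3 were Sox11, Olig2 and Neurod4 (adjusted p = 0.015), and Neurog2 had 0.37. Between P14 and P21 the length calls with a library left out were 0 to 1. Every length change of the 8 genes against P0 kept its sign in all settings run. H3K27Ac height at the start gave 0, and 2 at P14 and 2 at P21 with lists of equal length. For H3K27Ac regions, 0 passed at P14, and 2 did with a pseudocount of 1 and 5 with lists of equal length (4 lower, 1 higher). At P21 0 passed, and 4 did with a pseudocount of 1, 3 with no filter, 6 with lists of equal length, 6 with only the compared ages, 6 with the replicate block and 0 to 5 with a library left out (5 without P21 replicate 2). All of these were lower, whereas the calls over all regions in the same order of settings, 4540, 4467, 5556, 7169, 7233 and 2945, were mostly higher (3225, 3840, 2982, 5227, 5465 and 2072); they were 0 at the main setting. Between P14 and P21, 1 region passed with lists of equal length. H3K27me3 domains at P21 touched 3 starts in both libraries and 5 in either. Brg1 was at all 8 starts also in a 1 kb window and among the strongest 50% of peaks. The cause of these differences was not tested.

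Changes of sign among single genes were all at log2 changes that passed no test. H3K4me3 height at P14 turned at Atoh7 without scaling (-0.01). With a library left out it ran from -0.15 to 0.58 at Hes6, -0.04 to 0.33 at Atoh7, -0.76 to 0.07 at Sox11 and -0.18 to 0.12 at Insm1. At P21 it turned at Insm1 without scaling (0.01), with -0.13 to 0.09 with a library left out. H3K27Ac height at P14 turned at Neurod4 without scaling (0.11) and in the 1 kb window (0.39), and with a library left out it ran from -0.61 to 0.47 at Neurod4, -1.56 to 0.07 at Atoh7 and -0.21 to 0.61 at Insm1. At P21 it turned at Insm1 without scaling (-0.21), and ran from -0.41 to 0.84 at Insm1 and -0.54 to 0.68 at Neurod4 with a library left out.

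Over all starts, H3K4me3 height calls numbered 381 at P14 and 917 at P21, and 89 and 128 without scaling; with the replicate block 1463 were called at P21. Length calls numbered 650 and 785, and 1318 and 2141 with scaling. H3K27Ac calls at starts numbered 0 at both ages, and 386 and 552 with lists of equal length. Scaling moved the median log2 change over all starts by over 0.1 for H3K4me3 height at P14 (from -0.18 to -0.03) and P12 (from -0.52 to 0.01), H3K4me3 length at P14 (from -0.14 to 0) and H3K27Ac height at P14 (from -0.03 to -0.16), P21 (from -0.53 to -0.25) and P12 (from 0.21 to 0.01). Over all H3K27Ac regions it moved the median from 0.46 to 0.3 at P14 and from 0.23 to 0.45 at P21. The labels do not say that a replicate number marks a shared batch. Deviations of same-numbered H3K27Ac libraries correlated at 0.49 between P14 and P21 at starts (0.45 at regions), but at 0.15 and 0.058 (0.074 and 0.015) between P0 and these ages, and replicate 1 had the short list at each age. For H3K4me3 it was 0.11 between P0 and P21. The numbers were therefore not taken as pairs, and whether they mark a shared batch was not tested. By title the P14 H3K4me3 libraries are replicates 2 and 3, though their deposited lists are numbered 1 and 2; the titles were followed, which gave no replicate block there. Precision is limited by 2 libraries a group and, for H3K27Ac, by the shorter lists of replicate 1.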
